A study of Mus musculus with 6 samples.

Results

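The insulin-like growth factor (IGF) family was followed in cultured mouse cochleae through 9 genes: the ligands Igf1 and Igf2, the receptor Igf1r and the binding proteins Igfbp2, Igfbp3, Igfbp4, Igfbp5, Igfbp6 and Igfbp7. The genes were taken by symbol from a table of read counts that lists 24421 gene symbols. All 9 were in the table, and all 9 were among the 15988 genes with enough reads to be tested. The RNA came from 6 samples of explants of WT mice, 3 control and 3 treated with neomycin, an aminoglycoside that kills cochlear hair cells (HCs). Cochleae were dissected at postnatal day 2 and kept in culture for 12 h, the neomycin group then received 1 mM of the drug for 6 h, and the explants were held for 5 more days with 10 µM EdU, a label of DNA synthesis. The growth text of the labels gives the neomycin step for every sample, so the control group is known as untreated only from its treatment label. Each sample pooled 6 to 8 cochleae, and by the study's methods the stria vascularis anlage, the modiolus and the tectorial membrane had been removed, so an explant held the sensory epithelium with the tissue left around it. The medium carried N2 and B27, supplements that contain insulin. Nothing says whether the pools of a group came from separate litters or days, so the p-values below measure the spread between these samples, which may be partly technical.

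IGF1 and IGF2 are small secreted proteins related to insulin. Both signal through the IGF1 receptor, a tyrosine kinase that acts through the IRS adaptors on the PI3K-AKT and MAPK pathways to promote growth and survival. IGF2 is made at high levels by embryonic and newborn mesenchyme from an imprinted gene. The IGFBPs are secreted proteins that hold IGFs in the extracellular space, and proteases such as PAPP-A release the ligand by cutting them. IGFBP7 is the odd one among them, since it binds IGFs only weakly. In the inner ear, IGF1 is needed for normal postnatal maturation of the cochlea, and it has been studied as a protective factor for HCs.

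The 9 genes lie on 6 chromosomes of the mouse genome (GRCm38, GENCODE annotation). Igf1 is at chr10:87858265-87937042 on the plus strand, Igf2 at chr7:142650766-142666816 on the minus strand and Igf1r at chr7:67952827-68233668 on the plus strand. Igfbp2, at chr1:72824503-72852474 on the plus strand, and Igfbp5, at chr1:72857932-72874884 on the minus strand, face each other tail to tail with 5457 bp between them. Igfbp3 is at chr11:7206086-7213923 on the minus strand, 3539 bp from Igfbp1, and Igfbp4 is at chr11:99041244-99054392 on the plus strand. Igfbp6 is at chr15:102144362-102149511 on the plus strand and Igfbp7 at chr5:77349240-77408041 on the minus strand. Exons of Igf2 overlap those of the antisense gene Igf2os and, on the same strand, Gm49394. Exons of Igfbp7 overlap those of Polr2b on the opposite strand. The strand setting of the counting was not stated, so reads in the overlaps cannot be assigned to one gene with certainty. The promoters shown here are those of the 4 binding protein genes whose RNA passed the test after neomycin. Each is the 250 bases before a RefSeq start (GRCm38.p6), 5′ to 3′, with capitals for matches on either strand to a TATA box (TATAAA), the core of the AP-1 site (TGACTCA), of the FOXO site (GTAAACA), of the TEAD site (GGAATG), through which YAP acts, and to the SP1 GC box (GGGCGG). Igfbp2 (chr1:72824230-72824479, plus strand) and Igfbp4 (chr11:99040994-99041243, plus strand) were higher after neomycin, and Igfbp3 (chr11:7213924-7214173, minus strand) and Igfbp7 (chr5:77408046-77408295, minus strand) were lower.
Igfbp2: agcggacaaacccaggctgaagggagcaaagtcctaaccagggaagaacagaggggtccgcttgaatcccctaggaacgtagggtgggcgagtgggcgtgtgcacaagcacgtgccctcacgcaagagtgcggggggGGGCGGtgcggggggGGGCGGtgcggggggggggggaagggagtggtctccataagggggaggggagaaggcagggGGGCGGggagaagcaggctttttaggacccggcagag
Igfbp4: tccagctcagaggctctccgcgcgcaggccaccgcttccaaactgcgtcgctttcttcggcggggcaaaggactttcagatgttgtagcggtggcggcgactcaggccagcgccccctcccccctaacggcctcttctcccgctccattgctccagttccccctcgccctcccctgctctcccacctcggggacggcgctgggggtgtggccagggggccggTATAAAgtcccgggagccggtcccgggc
Igfbp3: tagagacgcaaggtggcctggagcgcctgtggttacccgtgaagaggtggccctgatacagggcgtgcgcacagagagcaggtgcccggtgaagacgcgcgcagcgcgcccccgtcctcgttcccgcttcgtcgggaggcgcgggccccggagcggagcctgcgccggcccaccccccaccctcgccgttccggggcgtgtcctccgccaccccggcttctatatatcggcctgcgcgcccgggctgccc
Igfbp7: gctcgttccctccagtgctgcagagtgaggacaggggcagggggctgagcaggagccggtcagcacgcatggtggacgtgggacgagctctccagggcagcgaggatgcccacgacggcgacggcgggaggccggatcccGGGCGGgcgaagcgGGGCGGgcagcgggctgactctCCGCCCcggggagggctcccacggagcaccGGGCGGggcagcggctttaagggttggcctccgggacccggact

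These 4 windows were rich in G and C, with 67.2% for Igfbp2, 69.2% for Igfbp4, 73.2% for Igfbp3 and 74.0% for Igfbp7, where the median of 32851 promoter windows of 27025 genes was 52.4%. They held 14, 22, 32 and 26 CpG dinucleotides in the same order, where the median window held 6. Igfbp2 had 3 GC boxes and Igfbp7 had 4, a motif present in 32.7% of all windows. Igfbp4 had a TATA box from 28 to 23 bases before the start, a motif present in 12.4% of windows. Igfbp3 had no exact match to the letters of the 5 motifs. Near its end the window did hold the run tatatat, which a search for TATAAA does not pick up. No window of the 9 genes, 13 in all, matched the FOXO letters, found in 3.17% of windows. A second start of Igfbp2 had an AP-1 match, found in 4.46% of windows, and TEAD letters, found in 12.6%, were in 3 of the 4 Igf2 windows and in that of Igfbp5.

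Between 50471116 and 66068108 reads were counted per sample, and the 9 genes together took 0.982% to 1.16% of them. HC markers fell in the neomycin group, with 10 of 12 differentially expressed and lower, where 6.60% of all tested genes were. Their summed level was 287 to 342 CPM (reads normalised by TMM for library size) against 816 to 961 in control. The prestin gene Slc26a5, the motor of outer HCs, was at 25.8 ± 2.33 CPM in control and 1.61 ± 0.280 CPM after neomycin (SD, n = 3). The listed markers covered HCs, supporting cells (SCs), mesenchyme, macrophages, endothelium, pericytes, Schwann cells, neurons and cartilage. None stayed at or below the floor of 3 counts in all 6 samples. At this depth that is a low bar, and it does not by itself show that a cell type was present. From the dissection, the explants were treated as mixed tissue. In such bulk samples, fewer cells of a type and less RNA per cell cannot be told apart.

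The changes that passed the test were all among the binding proteins. With edgeR's quasi-likelihood test, Igfbp2 and Igfbp4 rose and Igfbp3 and Igfbp7 fell at an adjusted p under 0.05, while the ligands Igf1 and Igf2, the receptor Igf1r, and Igfbp5 and Igfbp6 did not pass. Only Igfbp7 also changed by more than 1.5-fold and so counted as differentially expressed. That is 1 of 9 genes, lower, where 8.84% of all tested genes were differentially expressed, 6.60% lower and 2.24% higher. By adjusted p alone it is 4 of 9, where 29.0% of all tested genes passed, 16.1% lower and 12.9% higher. The control and neomycin samples did not overlap for 5 of the 9 genes, against 43.5% of all tested genes. The median log2 fold change was -0.03 over the 9 genes and 0.00 over all tested genes. No test was made of the 9 genes as a set, and what follows describes single genes.

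The levels of the genes spanned a wide range. Per kb of annotated exon, the control means were 783 ± 119 CPM for Igfbp5, 658 ± 46.5 for Igfbp2 and 480 ± 38.7 for Igf2 (SD, n = 3). These 3 genes ranked 47, 50 and 96 among the 15854 tested genes with a length. Igfbp4 at 141 ± 3.53 CPM per kb and Igfbp3 at 126 ± 10.8 formed the next step, and Igfbp7 at 50.01 ± 1.68 and Igf1 at 43.4 ± 7.47 the one after. Igfbp6 at 4.49 ± 1.47 CPM per kb and Igf1r at 4.18 ± 0.460 were near the median of tested genes, 4.58 CPM per kb. Neighbours in this order were separated in every sample of both groups except for 3 pairs. Igfbp5 and Igfbp2 overlapped in both groups, and so did Igfbp6 and Igf1r. Igfbp7 and Igf1 were separated in control and overlapped after neomycin, when Igfbp7 had a mean of 32.8 ± 2.30 and Igf1 of 36.0 ± 6.78 CPM per kb. Exon lengths count every annotated exon, so genes with long alternative ends, such as Igf1r with 16.791 kb, have a low level per kb.

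**Figure D1:**
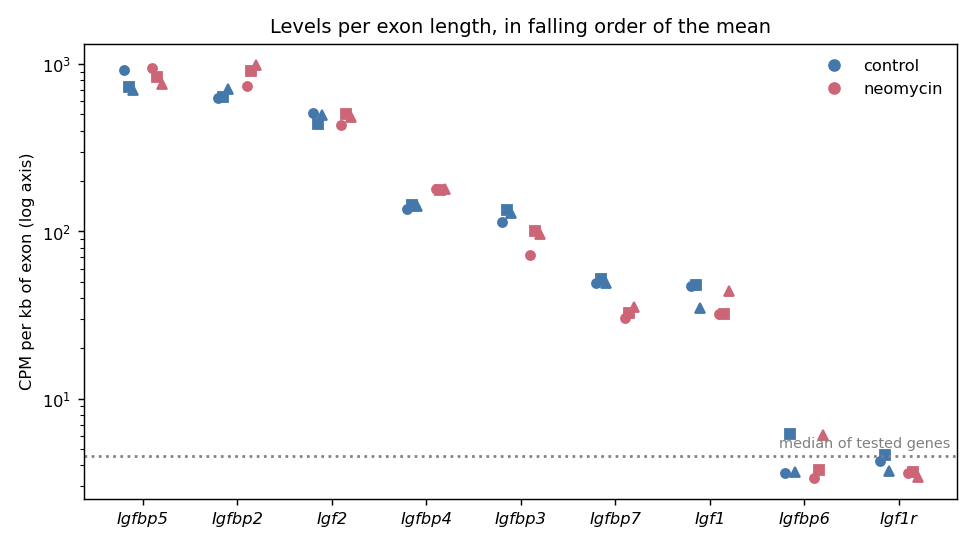
CPM per kb of annotated exon on a log axis for the 9 genes, in falling order of the mean over the 6 samples, with one point per sample (circle, square and triangle for replicates 1, 2 and 3) and a dotted line at the median of tested genes. Igfbp5, Igfbp2 and Igf2 are the highest in every sample, while Igfbp6 and Igf1r lie around the dotted line.

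Neither ligand gene passed the test. Igf2 was at 2911, 2495 and 2833 CPM in control samples 1, 2 and 3 and at 2473, 2892 and 2776 CPM in neomycin samples 1, 2 and 3. The groups overlapped over nearly their whole range. The log2 fold change was -0.02 with a 95% interval of -0.24 to 0.21 (adjusted p = 0.917, edgeR), and the interval leaves room for a change of that size in either direction. Igf1 was at 468, 477 and 345 CPM in control and at 319, 316 and 434 CPM after neomycin. Its groups overlapped because control sample 3 was low and neomycin sample 3 was high. The log2 fold change of Igf1 was -0.27 ± 0.14 (SE) with an interval of -0.57 to 0.03 (adjusted p = 0.167, edgeR). The result for Igf1 turned on single samples, since it passed without control sample 3 (log2 fold change -0.39, adjusted p = 0.0309) and without neomycin sample 3 (-0.43, adjusted p = 0.0368). Per kb of exon, Igf2 made up 91.7% ± 1.69 of the ligand RNA in control and 92.9% ± 1.17 after neomycin (SD, n = 3).

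The receptor gene Igf1r was lower in every neomycin sample but did not pass. It was at 70.9, 77.5 and 62.1 CPM in control and at 60.7, 61.0 and 57.3 CPM after neomycin. All neomycin samples lay below all control samples, but the gap between the nearest 2 was small. The log2 fold change was -0.23 ± 0.08 (SE), with an interval of -0.41 to -0.05, and the adjusted p of 0.0542 missed the threshold. It passed in 4 of the alternative fits, and its sign turned to 0.03 (adjusted p = 0.783) when the trend of read counts with exon length was removed from each sample. The direction of Igf1r thus depended on that correction.

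Igfbp2 and Igfbp4 were the genes that rose. IGFBP2 binds IGF2 with preference and is abundant in developing epithelia, and IGFBP4 is known as an inhibitor of IGF action that PAPP-A cleaves. Igfbp2 was at 1159, 1172 and 1314 CPM in control and at 1361, 1673 and 1833 CPM after neomycin. Control sample 3 and neomycin sample 1 came close, but the groups did not overlap. The rise was 1.34-fold (log2 fold change 0.42 ± 0.11 SE, adjusted p = 0.0167, edgeR). With the trend of counts with exon length removed it was 0.21 on the log2 scale and no longer passed (adjusted p = 0.0877), and it did not pass without control sample 2 (adjusted p = 0.0768), neomycin sample 2 (0.0767) or neomycin sample 3 (0.0853). Igfbp4 was at 605, 634 and 630 CPM in control and at 787, 780 and 795 CPM after neomycin. The samples of each group agreed closely, and the gap between the groups was several times the spread within them. The rise was 1.26-fold (log2 fold change 0.34 ± 0.08 SE, adjusted p = 0.00715, edgeR), and it passed with each of the 3 other scalings, with both other filters, with DESeq2 and limma-voom, with the replicate block and with the length correction, and in every fit that left out 1 sample.

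Igfbp7 and Igfbp3 were the genes that fell. IGFBP7 is a matrix protein made by blood vessels and other tissues, and IGFBP3 is the main IGF carrier of serum and is made by many stromal cells. Igfbp7 was at 59.1, 62.8 and 59.5 CPM in control and at 37.0, 39.5 and 42.6 CPM after neomycin. All 3 neomycin samples were well below the lowest control sample. The level was 1.52-fold lower (log2 fold change -0.61 ± 0.08 SE, interval -0.77 to -0.44, adjusted p = 0.000170, edgeR). The fold was only just past the limit of 1.5, and without control sample 2 or neomycin sample 1 it was under it, with the log2 fold change between -0.66 and -0.56 over the 6 fits that each left out a sample. With the length correction the log2 fold change of Igfbp7 was -0.91 (adjusted p = 2.49e-06). Igfbp3 was at 355, 420 and 405 CPM in control and at 227, 313 and 304 CPM after neomycin. Neomycin sample 1 was the lowest, and the other 2 were still below every control sample. The log2 fold change was -0.48 ± 0.12 (SE, adjusted p = 0.00889, edgeR), and without control sample 2 the adjusted p was 0.0517.

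Igfbp5 and Igfbp6 did not pass. Igfbp5, which is made by mesenchyme, bone and muscle, was at 5520, 4359 and 4221 CPM in control and at 5679, 5058 and 4566 CPM after neomycin. Its groups overlapped, with sample 1 the highest in each. The log2 fold change was 0.12 with an interval of -0.16 to 0.39 (adjusted p = 0.516, edgeR). Igfbp6, which prefers IGF2 as its ligand, was at 4.03, 6.88 and 4.07 CPM in control and at 3.73, 4.19 and 6.74 CPM after neomycin. One sample of each group stood above the other two, and the interval of the log2 fold change, -0.58 to 0.52, was the widest of the 9 genes (adjusted p = 0.946, edgeR).

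**Figure D2:**
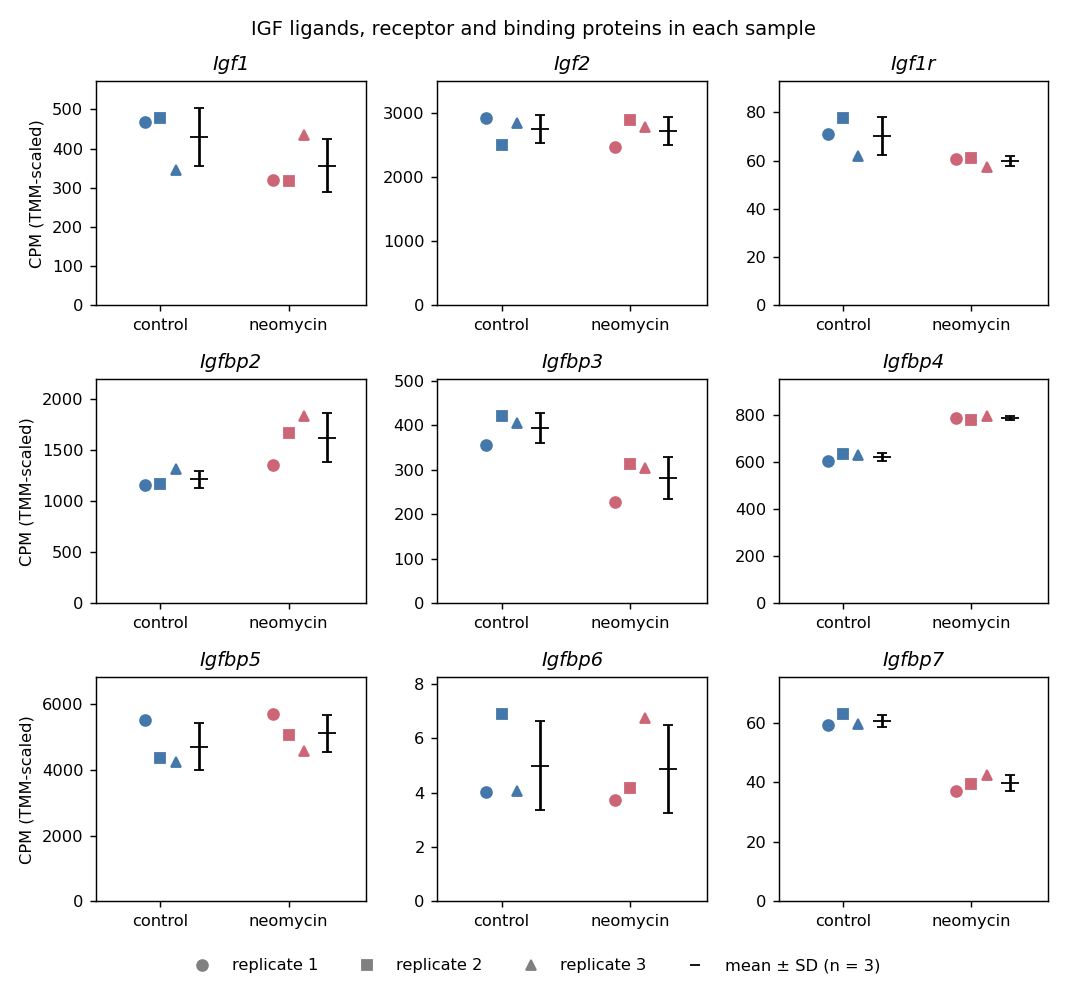
CPM (TMM-scaled, linear axes from 0) of each gene in the 3 control and 3 neomycin samples, with the mean ± SD of each group in black. The groups separate for Igf1r, Igfbp2, Igfbp3, Igfbp4 and Igfbp7 and overlap for Igf1, Igf2, Igfbp5 and Igfbp6.

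Summed per kb of exon, the binding protein RNA was higher relative to the ligand RNA in the neomycin samples. The summed Igfbp2 to Igfbp7 level was 3.33, 3.50 and 3.28 times that of Igf1 and Igf2 in the control samples and 4.24, 3.84 and 3.92 times in the neomycin samples. The groups did not overlap, and without division by length the ratio was 2.20 ± 0.101 in control and 2.57 ± 0.291 after neomycin (SD, n = 3), again without overlap. No test was run on these sums, which Igfbp5 and Igfbp2 dominated. Without division by length, the binding protein sum alone overlapped, at 6633 to 7702 CPM in control and 7547 to 8095 CPM after neomycin. The rise of Igfbp2 did not pass with the length correction. Within the binding proteins, Igfbp5 gave 44.3% ± 4.81 in control and 41.9% ± 5.75 after neomycin, and Igfbp2 gave 37.4% ± 3.49 and 43.1% ± 5.29, with overlapping groups for both. The share of Igfbp3 was 7.16% ± 0.918 and 4.41% ± 0.628, and that of Igfbp7 was 2.85% ± 0.210 and 1.61% ± 0.0758, both without overlap. The share of Igfbp4 was 8.02% ± 0.549 in control and 8.78% ± 0.255 after neomycin, higher in every neomycin sample and also without overlap. Igfbp6 made up less than the others in every sample.

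**Figure D3:**
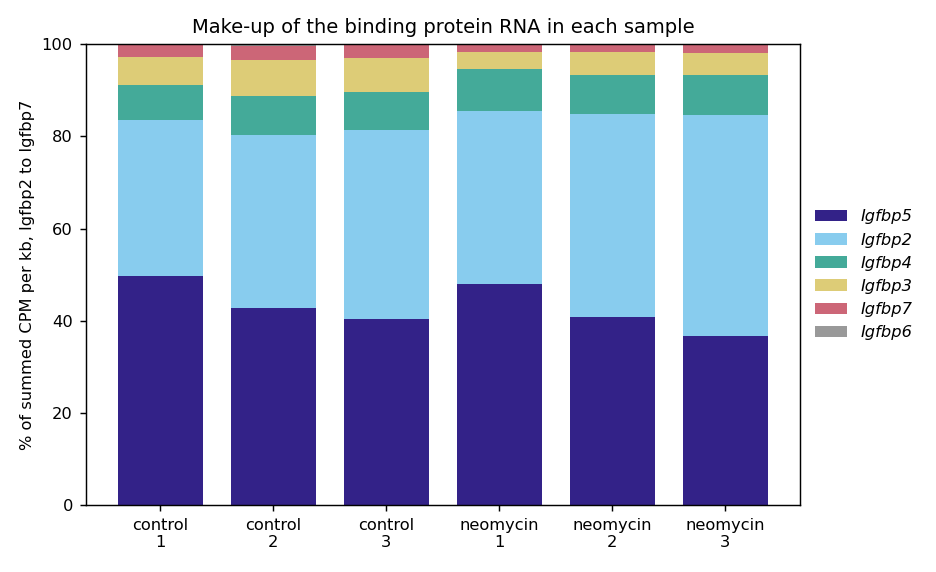
Share of each binding protein gene in the summed CPM per kb of Igfbp2 to Igfbp7, as stacked bars for each of the 6 samples (% of the sum). The Igfbp3 and Igfbp7 bands are narrower in all 3 neomycin samples, and the Igfbp2 band runs from 33.9% in control sample 1 to 47.9% in neomycin sample 3.

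Around the family, 70 further genes of the pathway were listed and 65 could be tested. Of these, 1 rose and 8 fell as differentially expressed genes, where 2.24% of all tested genes were higher and 6.60% lower. By adjusted p alone 3 rose and 28 fell, against 12.9% higher and 16.1% lower among all tested genes, and the median log2 fold change was -0.23. When the trend of counts with exon length was removed, 6 of the 65 were differentially expressed, where the share of all tested genes was 7.36%. By adjusted p alone 6 rose and 15 fell, where 23.5% of all tested genes passed with that correction, 10.4% higher and 13.1% lower. These genes are long, with a median of 7.131 kb of exon against 4.253 kb for all tested genes. The size of the small changes below, and whether they passed, can move with that correction.

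Of the other ligands, receptors and carriers, 5 of 9 could be tested. The insulin genes Ins1 and Ins2, the orphan receptor Insrr and Igfbp1 had too few reads. Igf2r, the receptor that takes up IGF2 for breakdown, was at 137, 136 and 119 CPM in control and at 90.8, 92.2 and 96.2 CPM after neomycin. It fell by 0.49 on the log2 scale (adjusted p = 0.000792, edgeR) and by 0.32 with the length correction (adjusted p = 0.00335). The insulin receptor gene Insr was at 58.6 ± 4.86 and 47.9 ± 2.96 CPM (log2 fold change -0.29, adjusted p = 0.0187, edgeR), which became -0.06 with the length correction (adjusted p = 0.571). Insr did not pass without control sample 2, neomycin sample 2 or neomycin sample 3 (adjusted p = 0.0972, 0.101 and 0.0545). Kazald1, an IGFBP-related protein of bone and cartilage, was at 194, 165 and 216 CPM in control and at 331, 302 and 316 CPM after neomycin. It rose by 0.72 on the log2 scale (adjusted p = 0.000282, edgeR), and by 0.50, under the fold limit, with the length correction. Igfbpl1 was at 1.87, 1.67 and 2.56 CPM in control and at 0.452, 0.796 and 0.577 CPM after neomycin, with a log2 fold change of -1.73 ± 0.33 (SE, adjusted p = 0.00251, edgeR). These are low levels, and Igfbpl1 was the largest change in the list.

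The proteases that cut IGFBPs and the inhibitors of these proteases were lower where they passed. Of 11 genes tested, 3 were differentially expressed, all lower, where 6.60% of all tested genes were lower and 2.24% higher. By adjusted p alone 6 fell and none rose, where 16.1% of all tested genes were lower and 12.9% higher. Pappa, the protease of IGFBP4, was at 4.13, 4.06 and 2.58 CPM in control and at 2.17, 1.47 and 1.49 CPM after neomycin (log2 fold change -1.07, adjusted p = 0.00850, edgeR). Its inhibitor Stc2 was at 18.5, 22.6 and 25.5 CPM in control and at 10.9, 17.9 and 14.5 CPM after neomycin (-0.62, adjusted p = 0.0140). Stc2 was no longer differentially expressed with the length correction (-0.57, adjusted p = 0.0216), nor without control sample 2 (-0.60, adjusted p = 0.0543), control sample 3 (-0.50, 0.0460) or neomycin sample 1 (-0.45, 0.0312). Adam12, which cuts IGFBP3 and IGFBP5, was at 1.15 ± 0.289 and 0.536 ± 0.0930 CPM (-1.10, adjusted p = 0.0353), and with the length correction it did not pass (adjusted p = 0.0797). Adam12 passed without control sample 3 but not without any of the other 5 samples (adjusted p = 0.0652 to 0.161). With the length correction, 1 of the 11 genes, Pappa, was differentially expressed, where the share of all tested genes was 7.36%. Pappa was at a low level, and its adjusted p ran from 0.00302 to 0.0475 over the edgeR fits that left out 1 sample. Pappa and its inhibitor were thus both lower in RNA. Ctsd, a lysosomal protease and the gene with the most reads in this list, was at 3445 ± 193 and 3279 ± 416 CPM (adjusted p = 0.661), and the matrix protease Mmp2 was at 585 ± 55.4 and 668 ± 23.1 CPM (adjusted p = 0.125). Mmp2 passed only without control sample 1 (0.27, adjusted p = 0.0490), among the fits that left out a sample.

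**Figure D4:**
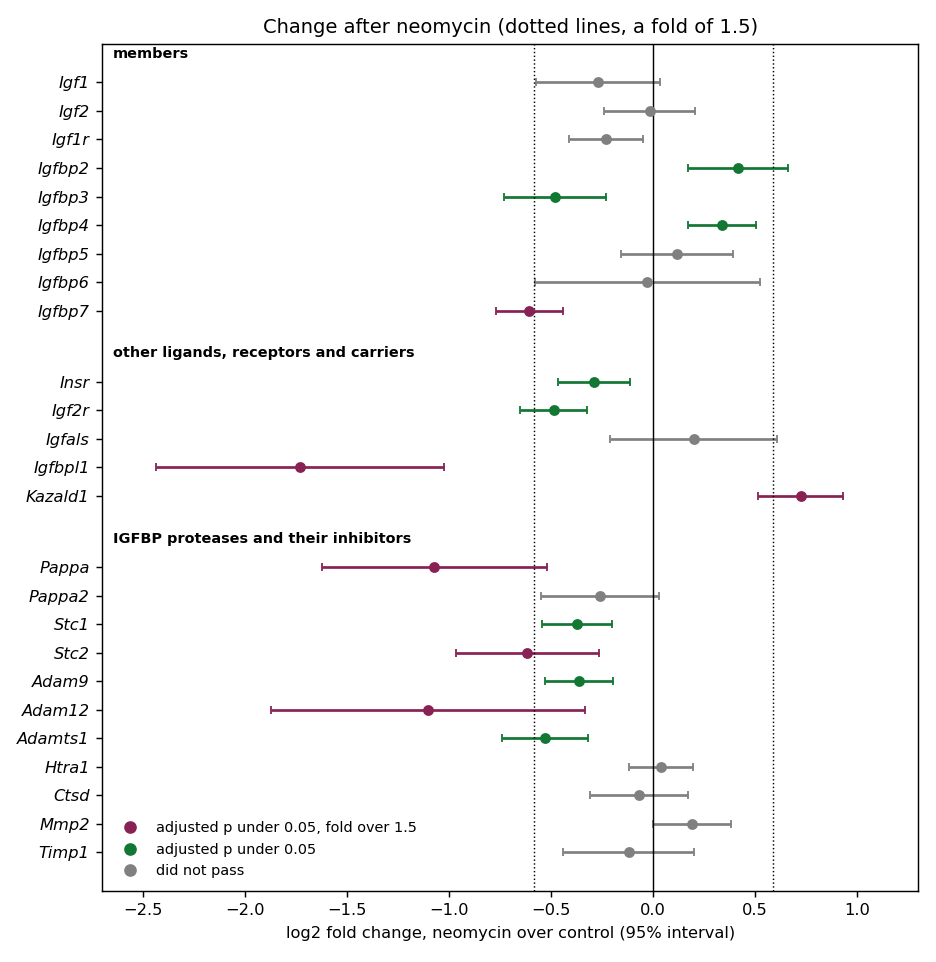
Log2 fold change of neomycin over control with its 95% interval (edgeR) for the 9 genes, the 5 tested further ligands, receptors and carriers, and the 11 IGFBP proteases and inhibitors, with dotted lines at a fold of 1.5 in either direction. Igfbp7, Igfbpl1, Pappa, Stc2 and Adam12 lie past the lower line and Kazald1 past the upper one.

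H19, the non-coding RNA 72.6 kb from Igf2 that is imprinted on the opposite allele, was at 9114, 8863 and 10550 CPM in control and at 8196, 10880 and 9539 CPM after neomycin. Its log2 fold change was 0.00 (adjusted p = 0.985, edgeR), so neither gene of the imprinted pair passed. Igf2bp2, which binds IGF2 RNA, was at 71.5 ± 4.23 and 62.1 ± 0.664 CPM (log2 fold change -0.20, adjusted p = 0.0443), and it passed without control sample 3 but not without any of the other 5 samples (adjusted p = 0.0731 to 0.188). Of the 8 genes tested in this list, none was differentially expressed, where the share of all tested genes was 8.84%. By adjusted p alone 3 fell and none rose, where 16.1% of all tested genes were lower and 12.9% higher. With the length correction none passed, where 23.5% of all tested genes did. The antisense Igf2os was at 3.72 ± 0.205 CPM in control and 4.06 ± 0.437 CPM after neomycin (adjusted p = 0.604).

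Downstream of the receptor, 41 adaptor and PI3K-AKT genes were tested, and 4 were differentially expressed, all lower. That is near the 8.84% of all tested genes that were, 6.60% lower and 2.24% higher. Irs2, the insulin receptor substrate, was at 13.6, 11.3 and 8.29 CPM in control and at 5.52, 5.42 and 3.41 CPM after neomycin (log2 fold change -1.21, adjusted p = 0.00151, edgeR). Foxo3, a transcription factor that AKT keeps out of the nucleus, was at 20.1, 20.6 and 13.4 CPM in control and at 9.24, 7.71 and 6.35 CPM after neomycin (-1.22, adjusted p = 0.000447). Eif4ebp2, a brake on translation under mTOR, was at 20.9 ± 4.06 and 9.63 ± 1.38 CPM (-1.12, adjusted p = 0.000292). These 3 genes stayed differentially expressed with the length correction. Akt1 and Akt2, the genes of this list with the most reads, were at 274 ± 6.92 and 255 ± 12.0 CPM in control and at 257 ± 0.853 and 271 ± 6.58 CPM after neomycin, and neither passed (adjusted p = 0.343 and 0.391). By adjusted p alone 2 of the 41 rose and 16 fell, where 12.9% of all tested genes were higher and 16.1% lower. With the length correction 5 rose and 7 fell, where 10.4% of all tested genes were higher and 13.1% lower.

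Genes that FOXO factors are known to induce, a readout of low AKT signalling in other tissues, moved both ways. Of 19 tested, 7 rose and 5 fell by adjusted p, where 12.9% of all tested genes were higher and 16.1% lower. Only 1 was differentially expressed, Irs2, against 8.84% of all tested genes. With the length correction 5 rose and 2 fell by adjusted p, where 10.4% of all tested genes were higher and 13.1% lower. The summed level of the list was 1193 to 1242 CPM in control and 1289 to 1329 CPM after neomycin, but its median log2 fold change was -0.06. The sum gives most weight to the genes with the most reads, Txnip and Cat, of which Txnip rose. Txnip, an inhibitor of thioredoxin, was at 289, 262 and 228 CPM in control and at 352, 322 and 330 CPM after neomycin (log2 fold change 0.37, adjusted p = 0.0112, edgeR). Cat, which encodes catalase, was at 173 ± 9.94 and 165 ± 9.95 CPM (adjusted p = 0.569).

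The tested genes whose profile over the 6 samples was most like that of Igfbp7, among 10383 genes with a mean of at least 10 CPM, were Nup210, Arid3a and D17H6S56E-5. Their log2 CPM, centred on the control mean, differed from that of Igfbp7 by a root mean square of 0.0429, 0.0559 and 0.0597. Nup210, a nuclear pore protein gene, was at 33.1, 34.0 and 31.1 CPM in control and at 20.1, 20.6 and 22.2 CPM after neomycin.

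Markers of cell types changed in both directions in the same samples. The counts below stand against 6.60% of all tested genes differentially expressed and lower, and 2.24% higher. In the endothelial list, 6 of 10 markers were differentially expressed, all lower, and the median log2 fold change of the list was -1.40. Pecam1, the endothelial adhesion molecule, was at 9.78 ± 2.79 CPM in control and 1.49 ± 0.470 CPM after neomycin (SD, n = 3). The summed level of that list was 294 to 332 CPM in control and 278 to 329 CPM after neomycin, most of it from Emcn, which was at 252 ± 12.1 and 273 ± 26.2 CPM. Pericyte markers had 2 of 8 lower, and their sum was 161 to 187 CPM in control and 139 to 143 CPM after neomycin. Macrophage markers had 6 of 12 higher, and their sum was 104 to 137 CPM in control and 153 to 189 CPM after neomycin. Mesenchyme markers, 1 of 12 higher and 2 lower, summed to 6418 to 7027 CPM in control and 6696 to 6933 CPM after neomycin. SC markers had 3 of 12 lower, Prox1, Fgfr3 and Ngfr, while their sum went from 2584 to 3000 CPM in control to 3286 to 3449 CPM after neomycin, most of it from S100a1. Cartilage and bone markers had 2 of 7 higher, and their sum was 5170 to 6286 CPM in control and 6210 to 6653 CPM after neomycin. Schwann cell and glia markers had 1 of 8 lower, with a sum of 561 to 630 CPM in control and 527 to 554 CPM after neomycin, and neuron markers had 4 of 10 lower, with 387 to 488 CPM and 376 to 425 CPM. Of 12 proliferation genes none was differentially expressed, where the share of all tested genes was 8.84%. By adjusted p alone 4 fell and none rose, where 16.1% of all tested genes were lower and 12.9% higher. The part of these lists in the changes of the IGF family genes was not tested.

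**Figure D5:**
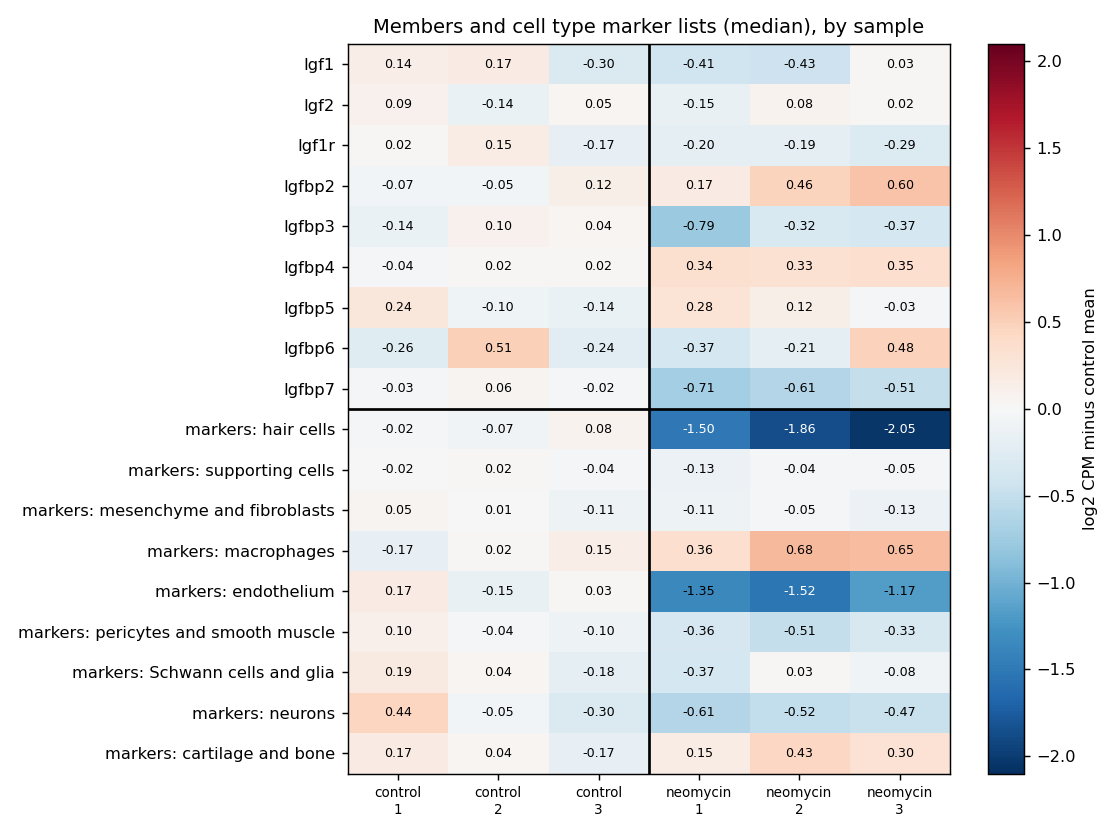
Log2 CPM minus the control mean in each sample for the 9 genes and, under the line, the median of each cell type marker list, with red for higher and blue for lower. The HC and endothelial lists are the lowest in all 3 neomycin samples, Igfbp3 and Igfbp7 are below 0 there, and Igfbp2, Igfbp4 and the macrophage list are above 0.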

How the data were processed

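RNA from 6 pooled explant samples was sequenced as mRNA libraries. Per the labels and the study's methods, the authors called bases with CASAVA 1.8, trimmed reads with Trimmomatic 0.23, aligned them to mm10 with HISAT2 and deposited raw counts per gene symbol made with HTSeq. The strand setting and the treatment of reads with several matches are not given in the sources used here. DESeq2 is named in their notes, but no values from it were used here.

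Here, TMM scaling and the filterByExpr filter were applied with edgeR 4.0.16 (R 4.3.3). Neomycin and control, all 6 samples, were compared with the edgeR quasi-likelihood test, with Benjamini-Hochberg adjustment over the 15988 genes tested. Differential expression required both an adjusted p-value below 0.05 and a change of more than 1.5-fold. CPM are TMM-scaled. Levels per kb used the merged exon length of GENCODE models, which 99.2% of tested genes had. Of 24421 symbols, 23376 matched directly and 646 by an older symbol. The correction for length removed from each sample a lowess trend (span 0.3) of log counts on exon length. Totals per sample ran from 50471116 to 66068108 counts, and the common biological coefficient of variation was 11%. Within a group, sample pairs had a chi-square of 13.7 to 46.7 per gene on average, so no library appeared to be deposited more than once. This does not show that the pools were independent. The script was tested on simulated data.

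The 9 genes, the pathway lists and the marker lists were chosen with earlier results of these data known. The genes named were all 9 members, up to 8 differentially expressed genes of each list by size of change, up to 2 of each list by mean CPM, and the 3 nearest profiles to the differentially expressed member. Insr, Igf2os and the untested Ins1, Ins2, Insrr and Igfbp1 were named beyond that rule after their values were seen. The values of 1 listed pathway gene are not reported here. Promoter windows come from RefSeq and matched all 9 genes. The alternatives were other scalings (RLE, upper quartile, total counts), no filter and a mean of at least 1 CPM, DESeq2 1.42.0, limma-voom (limma 3.58.1), a test against the fold itself (glmTreat), no fold limit, a replicate block, the length correction and each sample left out in turn.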

Additional observations from a re-analysis of the deposited data

How the results depend on the processing

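Of the 9 genes, 1 was differentially expressed. With glmTreat, which tests against the fold of 1.5 itself, it was 0, and with no fold limit 4. Over the fits that left out 1 sample it was 0 to 1. Of the other pathway genes 9 were differentially expressed, 4 with glmTreat and 31 with no fold limit, and 7 to 9 with a sample left out. Of all genes 1413 were, 380 with glmTreat and 4629 with no fold limit, and 1037 to 1672 with a sample left out, the lowest without control sample 2 and the highest without control sample 3. The counts by adjusted p alone, under the same alternatives, were added after seeing the data. They ran from 2 to 6 for the 9 genes with a sample left out, lowest without control sample 2, and from 17 to 33 for the pathway, where they were 17 without control sample 2, 18 without neomycin sample 2 and 19 without neomycin sample 3. Signs turned only for genes that did not pass: Igf2 to 0.00359 with upper quartile scaling, 0.0545 with the length correction and 0.0326, 0.0164 and 0.0452 with 1 sample left out (range -0.0784 to 0.0452), Igf1r to 0.0305 with the length correction, and Igfbp6 to 0.273, 0.132 and 0.0718 with 1 sample left out (range -0.331 to 0.273). The cause was not tested. Igf1r passed with total counts (adjusted p = 0.0320, edgeR), with no filter (0.0449), with the replicate block (0.0156) and without control sample 3 (0.00935).

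Control and neomycin samples share replicate numbers, and nothing says whether same-numbered samples belong together. Deviations of same-numbered samples correlated by 0.165, 0.0264 and 0.0949, and those of other pairs by -0.129 to 0.0325. Control samples 1 and 3 correlated best with the neomycin sample of their own number, and control sample 2 with neomycin sample 3 (0.0325). Correlations this weak cannot decide whether the numbers pair the samples. With the replicate block, 1 of the 9 genes, 9 pathway genes and 1465 of all genes were differentially expressed, and 5 and 39 passed by adjusted p alone. Depth did not limit the abundant members. For Igfbp6, at about 4 to 7 CPM, the spread between samples allowed no statement on a change under about 1.5-fold.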
